A study of Rattus norvegicus with 9 samples.

Results

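Potassium channel genes were taken as every gene whose name holds Kcn, then letters for the subfamily and a number, which gave 91 of the 32883 genes listed in each group's file. The 9 libraries are described as coming from fat of wild-type male Wistar rats on day 31, with 3 libraries in each of 3 groups. BB rats were made diabetic and received an extract of black beans at 260 mg/kg/day. DB rats had the same diabetes, produced with a high fat diet and a single streptozotocin injection of 25 mg/kg, and were gavaged with water. HE rats were healthy, ate a standard diet and received the citrate buffer alone. Streptozotocin kills insulin-producing beta cells, so BB and DB share both the diet and the toxin, and a difference of either from HE cannot be assigned to one of the pair. Each value is a gene's read count over the size factor of its library (scaled reads), with no correction for gene length. Levels are therefore compared chiefly between groups. Where levels of genes or gene sets stand side by side, gene length may have a part, which was not tested.

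Potassium channels let potassium leave or enter cells along its gradient and so set the resting membrane potential and the end of action potentials. Pore-forming subunits are opened by voltage, calcium, G proteins or a fall in ATP, or leak at rest, and auxiliary subunits change how a pore opens or reaches the membrane. Around fat cells they are best known from the vessel wall (Kcnma1, Kcnmb1, Kcnj8), from macrophages and lymphocytes (Kcna3, Kcnn4, Kcnk6) and, elsewhere, from the ATP-sensitive channel of beta cells (Kcnj11). In bulk tissue, fewer cells of a type and less RNA per cell cannot be told apart. Nothing but the rat numbers in the sample titles says that the libraries are of separate animals, and the p-values given here cover no more than how far libraries of a group differ, which can be technical.

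Summed reads lay between 2771967 and 3542749 in 8 libraries, where 1 read stood for a value of 0.672 to 0.913. BB replicate 8 stood apart. It had 12267084 reads, 76.5% of them on its 10 largest genes (10.2% to 19.2% in the others), it had no reads for 15583 genes (631 to 894 in the others), and its single read stood for 14.6. It was left out of the fit and its values are given apart, so BB rests on 2 libraries. Each of the 10 adipocyte markers had reads in all 8 libraries. Their sums were 643 to 661 in BB, 633 to 749 in DB and 672 to 736 in HE. Mean values over the 8 libraries were 64.6 for adiponectin (Adipoq), 11.8 for Fabp4, 97.1 for Plin1 and 197 for Lep. The median over all genes tested was 31.7, and albumin (Alb), a hepatocyte marker, had 438, with no correction for gene length. In BB replicate 8 the 10 adipocyte markers summed to 659 scaled reads, while 5 of the 10 were at 0, Adipoq among them. With 1 read worth 14.6 there, that sum rests on far fewer reads than in the others, though the library had more reads. For the same reason a 0 there says little of a gene with a low value. Each hepatocyte, neuron, muscle, endothelial, immune, kidney and islet marker found also had reads in all 8 libraries, so presence of reads alone did not single out fat. Hepatocyte markers summed to 1317 to 1363 in BB, 1030 to 1102 in DB and 1265 to 1661 in HE, lowest in DB. Much of this sum was Alb, at 438 and 501 in BB, 251 to 283 in DB and 486 to 738 in HE. Of the 9 hepatocyte markers found, 2 had a log2 fold change above 0 in DB against HE (median −0.16). The part of these markers in the channel genes' values was not tested. All 1130 olfactory receptor genes, which serve smell, had reads in each of the 8 as well.

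Reads were found in all 8 libraries for 90 of the 91 potassium channel genes (98.9%), against 94.8% of the 32371 genes tested. The exception was Kcne1, at 0 in HE replicate 3. The median of their mean values over the 8 libraries was 64.1 (31.7 for all genes tested), and the lowest was 3.64, that of Kcne1. The 91 genes together took 0.281% and 0.285% of the reads in the BB libraries, 0.260% to 0.276% in DB and 0.269% to 0.293% in HE. Summed as scaled reads they came to 6782 and 6806 in BB, 6756 to 6952 in DB and 6838 to 7055 in HE, so both BB sums lay below all HE sums narrowly, and DB overlapped both groups. For the median gene the highest of the 8 libraries was 1.5 times the lowest (90 genes), and 16 genes differed by more than 2 times. Within groups the variance was 1.36 times that of counting alone for the median potassium channel gene and 1.22 times for the median of all genes tested, with a median of 79.5 reads per channel gene and library. The widest spread within groups was that of Kcnk1, a leak channel, at 8.86 times counting variance, with values of 53.7 and 33.8 in BB, 40.2, 44.5 and 77.0 in DB, and 32.2, 33.0 and 64.0 in HE.

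Of the 91 genes, 1 passed the test in any of the 3 comparisons. Groups were compared by limma with a trend on log2(value + 1), and a gene was called at a Benjamini-Hochberg adjusted p under 0.05 over all 32371 genes. That gene was Kcnu1, lower in BB than in HE. In DB against HE limma called 0 of 91, with 7 (7.69%) at an unadjusted p under 0.05, whereas of all genes tested 0.677% were called (0.334% higher, 0.343% lower) and 9.43% had such an unadjusted p. On recovered reads edgeR called 0 (8 unadjusted), DESeq2 0 (4) and limma-voom 0 (7). In BB against DB limma called 0 of 91, with 4 (4.4%) unadjusted, and 0 of all genes (4.95% unadjusted), while edgeR called 0 channel genes (3 unadjusted), DESeq2 0 (1) and limma-voom 0 (3). In BB against HE, 1 of 91 was called (8 unadjusted, 8.79%), beside 0.192% of all genes called (0.0432% higher, 0.148% lower) and 6.86% with such an unadjusted p.

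Fold changes of the channel genes were small and lay on both sides of 0. They were above 0 for 44 of 91 genes in DB against HE (48.4%, beside 50.9% of all genes), 44 in BB against DB (48.4%, beside 49.4%) and 48 in BB against HE (52.7%, beside 49.9%). The median log2 fold change was −0.0057 in DB against HE (0.0053 over all genes tested), −0.015 in BB against DB (−0.0034 over all genes) and 0.013 in BB against HE (−0.0011 over all genes). The median size of change, sign ignored, was 0.12, 0.11 and 0.14 for channel genes in these comparisons, against 0.17, 0.16 and 0.18 for all genes. Channel genes also had higher values, with a median mean of 64.1 against 31.7 for all genes tested. The part of level in the sizes of change was not tested. The 95% interval of the fold change lay within 2-fold in either direction for 89 of 91 genes in DB against HE, 89 in BB against DB and 83 in BB against HE. Kcne1 and Kcne4, the genes with the lowest values, lay outside it in every comparison, and in BB against HE so did Kcne5, Kcng2, Kcnk6, Kcnk13, Kcnmb1 and Kcnu1. For the remaining genes a change of more than 2-fold between these groups lies outside the interval, while smaller ones are not excluded at this depth and number of libraries. Point estimates beyond 1.5-fold were found for 2 genes in DB against HE (2.20%, beside 8.69% of all genes), 1 in BB against DB (1.1%, beside 8.64%) and 5 in BB against HE (5.49%, beside 9.29%).

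**Figure D1:**
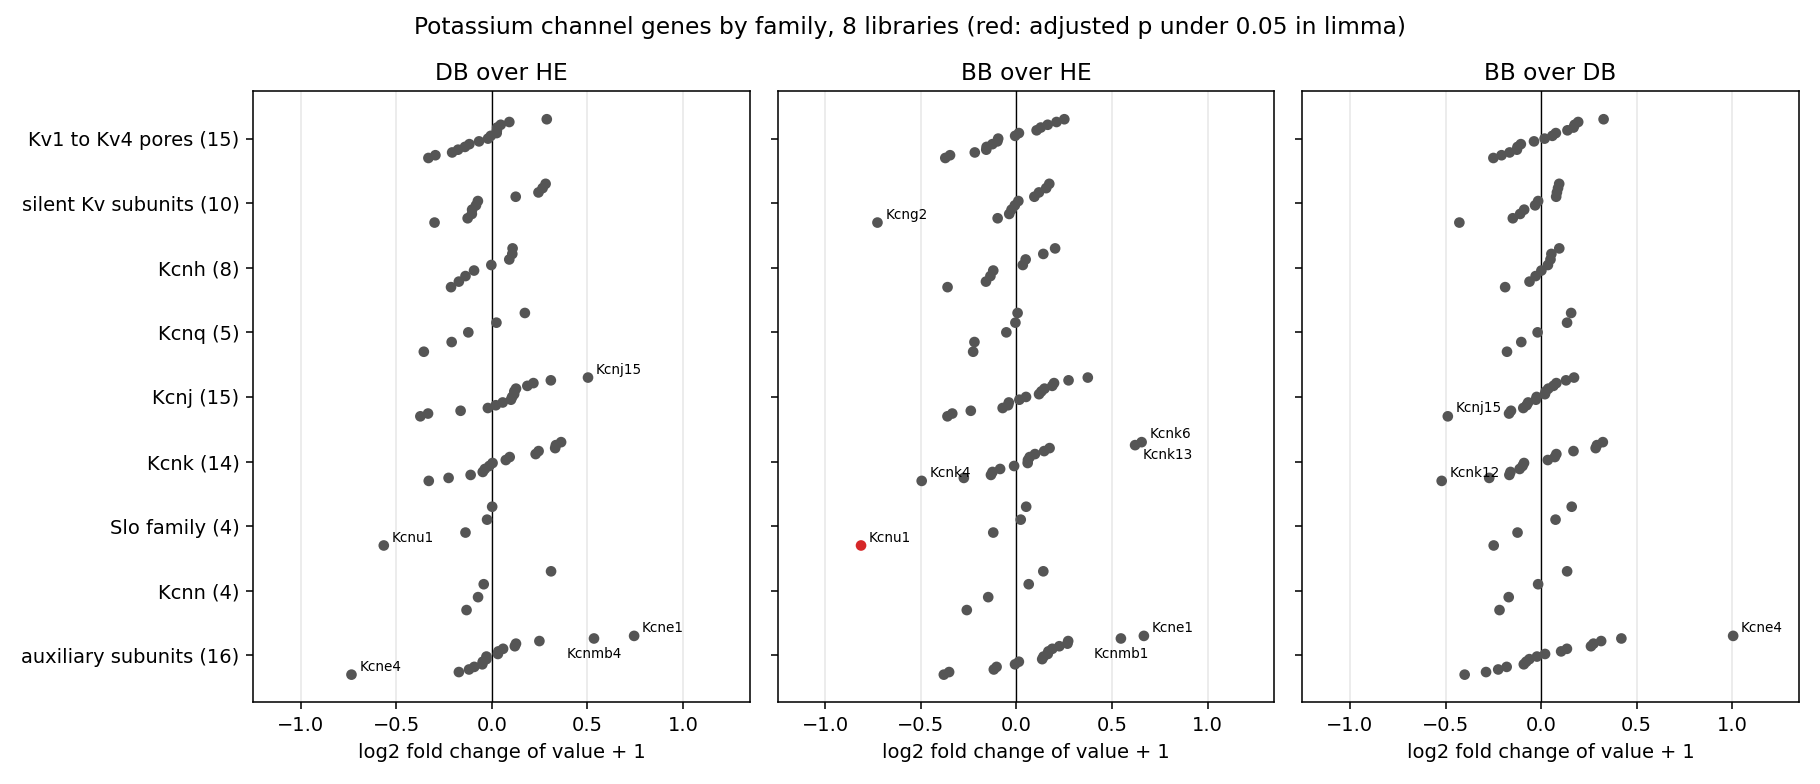
Log2 fold change of value + 1 on the x axis for the 91 potassium channel genes, each a point, by family on the y axis, in DB over HE, BB over HE and BB over DB (8 libraries). Most points lie near 0, and only Kcnu1 in BB over HE, drawn in red at −0.81, has an adjusted p under 0.05.

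The groups did not overlap for some genes. In DB against HE, 6 channel genes were higher in every DB library than in any HE library (6.59%, beside 6.82% of all genes) and 6 were lower (6.59%, beside 7.25%). In BB against DB, 10 were higher (11%, beside 9.04%) and 5 lower (5.49%, beside 10.5%). In BB against HE, 11 were higher (12.1%, beside 10.3%) and 16 lower (17.6%, beside 11.9%). These shares were described and not tested.

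Among the Slo channels, whose pores pass large currents, Kcnu1 (Slo3, in mice a channel of sperm opened as the cytoplasm turns alkaline) had 70.9 and 85.4 scaled reads in BB, 103, 98.8 and 77.7 in DB, and 132, 123 and 160.0 in HE. Every HE library was above every BB and DB library, whereas BB and DB overlapped. Means were 78.1 ± 10.3 in BB (SD, n = 2), 93.2 ± 13.6 in DB and 138 ± 19.4 in HE (SD, n = 3 each). Kcnu1 fell in BB relative to HE by limma, with a log2 fold change of −0.81 (SE 0.16, 95% interval −1.14 to −0.48, adjusted p = 0.0379; edgeR 0.0378). In DB against HE it was −0.57 (SE 0.14, −0.86 to −0.27), which missed the threshold (limma adjusted p = 0.0761), and in BB against DB −0.25 (SE 0.16, −0.58 to 0.08, adjusted p = 0.998). Within groups its variance was 2.72 times that of counting.

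The call on Kcnu1 in BB against HE depended on single libraries and on the tool. Its direction held in each of 20 alternatives and its call in 9 of them, with adjusted p between 0.0280 and 0.551. It was lost without BB replicate 1 (0.364), BB replicate 4 (0.0815), DB replicate 1 (0.0535), HE replicate 2 (0.0872) or HE replicate 4 (0.329), and by DESeq2 (0.0727). With BB replicate 8 in the fit, where Kcnu1 had 0 reads (a 0 there allows a value of up to 43.9, the worth of 3 reads, counting error only), it was also lost (limma adjusted p = 0.526, edgeR 0.551). In DB against HE it was called without HE replicate 3 (0.0443) and with total-count scaling (0.0463). Its neighbours in RefSeq's rat assembly GRCr8, Pomk and Ash2l, had log2 fold changes of −0.04 (limma adjusted p = 0.984) and −0.13 (0.934) in BB against HE.

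The other Slo genes kept close levels across groups. Kcnma1, the calcium-activated BK channel that relaxes vascular smooth muscle, had 163 and 158 in BB, 165, 196 and 164 in DB, and 156, 203 and 168 in HE. The sodium-activated channel Kcnt1 had 231 and 259 in BB, 223, 219 and 256 in DB, and 226, 242 and 242 in HE, and its relative Kcnt2 had 149 and 153 in BB, 129, 133 and 144 in DB, and 143, 150 and 153 in HE. Both BB libraries lay below all DB libraries for Kcnma1, by a narrow margin, and above them for Kcnt2, while the other pairs of groups overlapped.

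**Figure D2:**
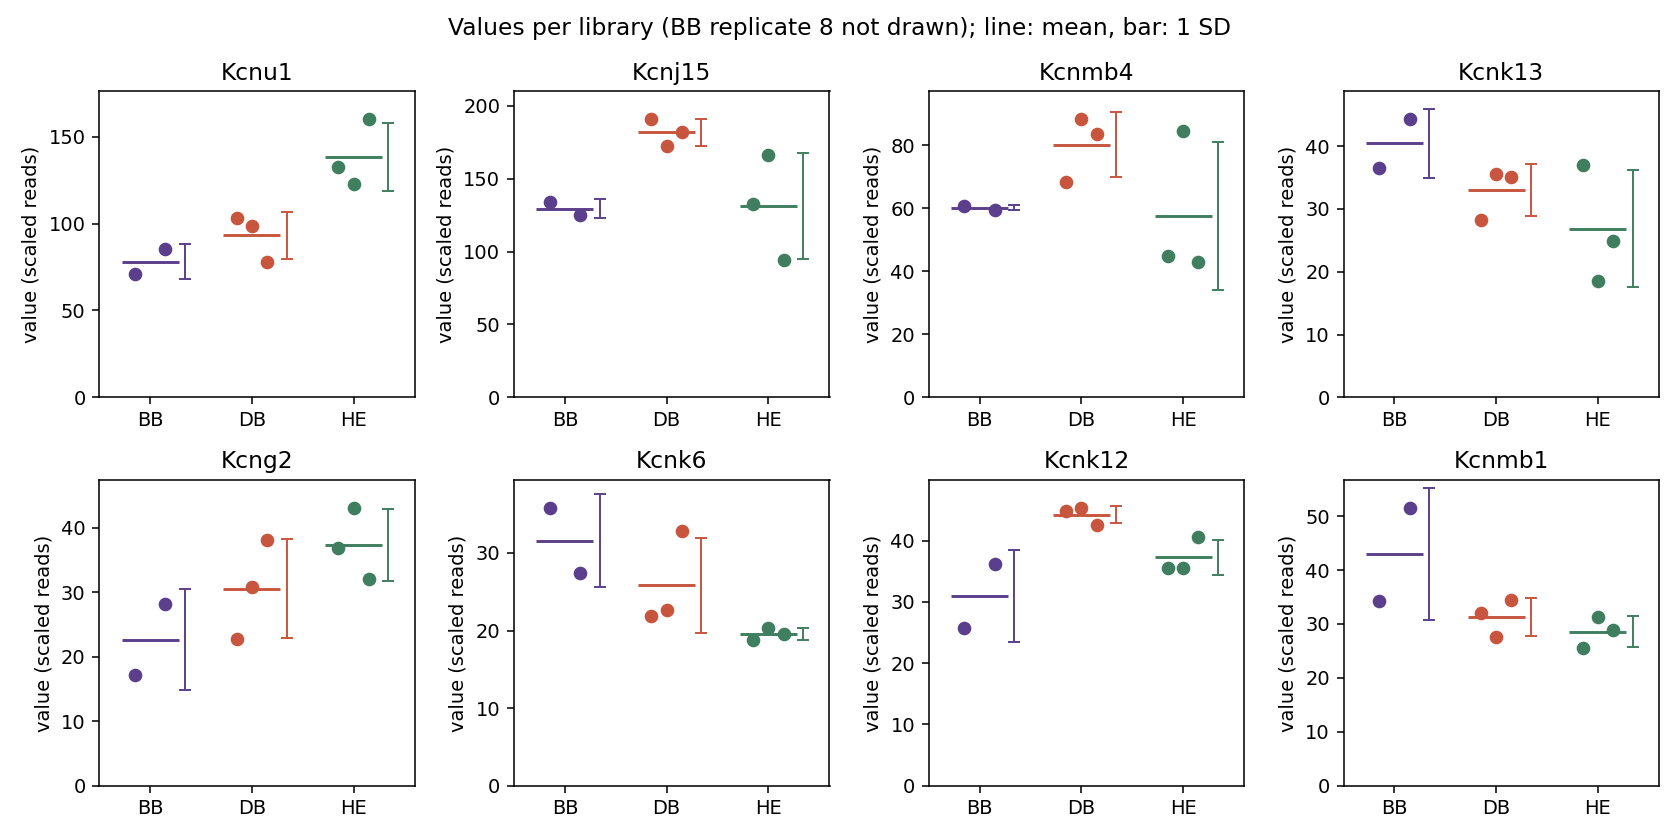
Scaled reads (y axis) of 8 potassium channel genes in the 2 BB, 3 DB and 3 HE libraries of the fit, each a point, with the group mean as a line and 1 SD as the bar beside it; BB replicate 8 is not drawn. Kcnu1 lies higher in all HE libraries, while Kcnj15 and Kcnmb4 lie highest in DB, with 1 HE library near the DB values for Kcnmb4.

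Among the 15 inward rectifiers (Kcnj), which pass potassium inward more readily than outward and hold cells near rest, 11 had a log2 fold change above 0 in DB against HE with a median of 0.11, 7 in BB against DB (median −0.02) and 9 in BB against HE (median 0.05). None was called. Kcnj15 (Kir4.2) had 134 and 125 in BB, 191, 172 and 182 in DB, and 133, 167 and 94.4 in HE, so that all DB libraries lay above all BB and HE libraries. Its log2 fold change was 0.50 in DB against HE (SE 0.15, 95% interval 0.18 to 0.82, limma adjusted p = 0.180) and −0.49 in BB against DB (SE 0.17, −0.85 to −0.13, adjusted p = 0.954), with 0.015 in BB against HE (SE 0.17, adjusted p = 0.993). Its neighbours in GRCr8 are Kcnj6 and Erg, whose DB against HE values were −0.37 (SE 0.16, adjusted p = 0.466) and −0.07 (SE 0.12, adjusted p = 0.914).

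Kcnmb4, the beta4 subunit that slows BK channels and is best known from neurons, behaved like Kcnj15 across libraries. It had 60.7 and 59.6 in BB, 68.5, 88.3 and 83.7 in DB, and 45.0, 84.6 and 42.9 in HE, where HE replicate 3 sat among the DB libraries. Its log2 fold change was 0.53 in DB against HE (SE 0.20, 95% interval 0.12 to 0.95, limma adjusted p = 0.343) and −0.40 in BB against DB (SE 0.22, −0.86 to 0.06, adjusted p = 0.998). Without HE replicate 3 both genes passed in DB against HE, Kcnj15 with 0.69 (adjusted p = 0.0128) and Kcnmb4 with 0.84 (adjusted p = 0.00776). Without HE replicate 4 neither did, with 0.29 (0.661) for Kcnj15 and 0.36 (0.757) for Kcnmb4.

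A property of the libraries moved in part with both genes. The 10 largest genes took 13.8% and 14% of the reads in BB, 17.8%, 19.2% and 17.8% in DB, and 11.5%, 16.1% and 10.2% in HE replicates 2, 3 and 4. The library of HE with the largest such share, replicate 3, was also the one with the highest Kcnj15 and Kcnmb4, and replicate 4, with the smallest, had the lowest of both. Within DB the order was not kept for Kcnj15, since replicate 2, with the largest share, had its lowest DB value and the highest DB value of Kcnmb4. The part of this share in the differences between groups was not tested.

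**Figure D3:**
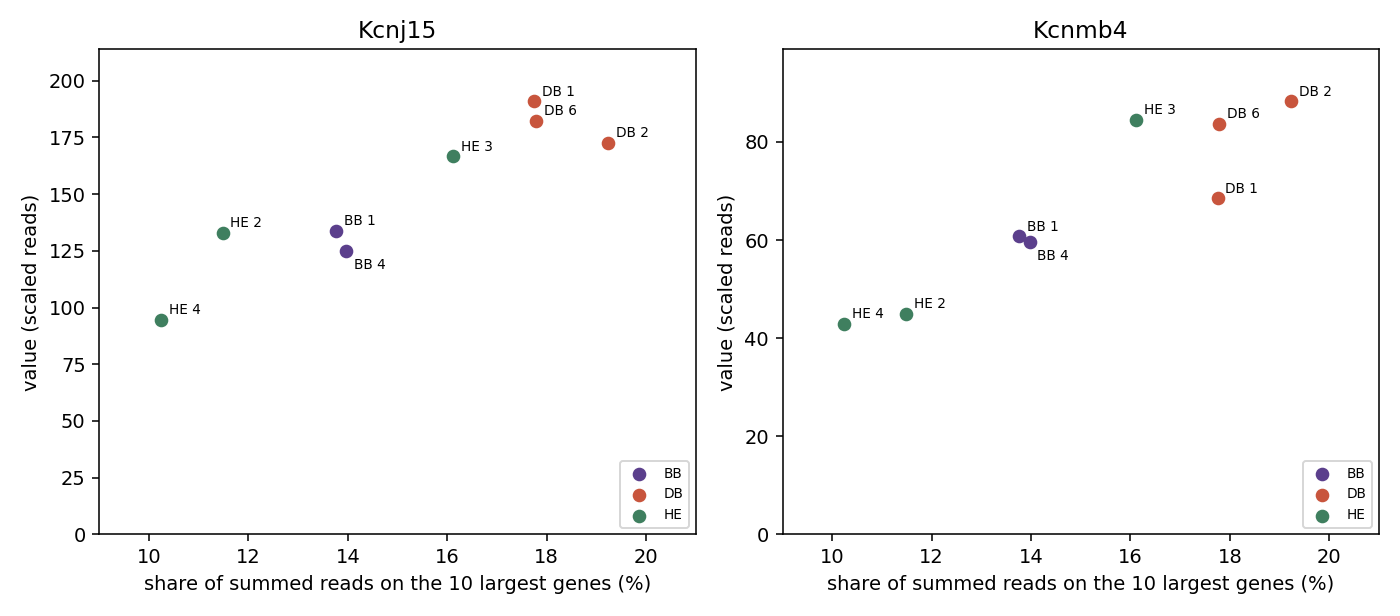
Scaled reads of Kcnj15 and Kcnmb4 (y axes, from 0) against the percentage of a library's reads on its 10 largest genes (x axis, starting at 9%), 1 point for each of the 8 libraries, coloured by group. HE replicate 3, at 16.1%, lies near the DB libraries (17.8% to 19.2%) in both plots.

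The promoters of these genes are shown because Kcnj15 and Kcnmb4 took like values across libraries and, with Kcnma1, the BK pore, had the highest values of the family in BB replicate 8. Of the 91 genes 62 had an entry in RefSeq's promoter table of GRCr8, and Kcnu1 had none. Each sequence runs 250 bases before to 50 bases after the gene's start, with every CG in capitals, and lies at chr11:48070700-48070999 (plus strand) for Kcnj15, chr7:54005052-54005351 (minus strand) for Kcnmb4 and chr15:351675-351974 (plus strand) for Kcnma1.
Kcnj15: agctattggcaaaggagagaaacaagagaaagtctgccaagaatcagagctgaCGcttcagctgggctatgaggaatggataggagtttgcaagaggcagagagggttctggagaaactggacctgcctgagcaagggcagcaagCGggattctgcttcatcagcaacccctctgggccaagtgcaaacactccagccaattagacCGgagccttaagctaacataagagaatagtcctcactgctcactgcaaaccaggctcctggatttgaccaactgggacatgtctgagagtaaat
Kcnmb4: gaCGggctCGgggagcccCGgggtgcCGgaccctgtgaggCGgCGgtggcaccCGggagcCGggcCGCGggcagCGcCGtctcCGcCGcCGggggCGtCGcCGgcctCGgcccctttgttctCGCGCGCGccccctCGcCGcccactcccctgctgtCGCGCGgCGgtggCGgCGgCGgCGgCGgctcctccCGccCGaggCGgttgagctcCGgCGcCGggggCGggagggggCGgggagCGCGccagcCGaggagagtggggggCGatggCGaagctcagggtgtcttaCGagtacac
Kcnma1: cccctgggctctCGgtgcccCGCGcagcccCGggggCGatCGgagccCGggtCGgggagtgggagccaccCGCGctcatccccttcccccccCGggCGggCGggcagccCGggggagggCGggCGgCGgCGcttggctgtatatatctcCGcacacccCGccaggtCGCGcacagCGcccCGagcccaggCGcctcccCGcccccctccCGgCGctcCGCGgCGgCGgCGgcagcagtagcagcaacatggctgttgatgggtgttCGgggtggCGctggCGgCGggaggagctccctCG
Kcnj15 held 3 CG, a number reached or passed by 77.7% of the 33469 promoters, whose median was 7. Kcnmb4 held 48 (1.04% of promoters have as many or more) and Kcnma1 38 (4.23%). The letters GGGCGG, on either strand, occurred 4 times in Kcnmb4, 5 times in Kcnma1 and 0 times in Kcnj15, and at least once in 33.1% of all promoters, while TATAAA, on either strand, occurred in none of the 3 and in 14.2% of all. These are matches of letters, and Kcnj15 and Kcnmb4 differed widely in CG content.

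Some of the other inward rectifiers also differed between groups without overlap, and none was called. Kcnj14 (Kir2.4) had 67.7 and 78.9 in BB, 77.6, 80.2 and 66.5 in DB, and 99.4, 82.9 and 101 in HE, lower in every BB and DB library than in HE. Its log2 fold change was −0.33 in DB against HE (SE 0.14, limma adjusted p = 0.420) and −0.36 in BB against HE (SE 0.15, adjusted p = 0.671). Kcnj6 (GIRK2, opened by G proteins) had 63.1 and 43.5 in BB, 44.7, 55.1 and 53.8 in DB, and 73.9, 63.4 and 62.4 in HE. All DB libraries lay below HE for Kcnj6. The pores of ATP-sensitive channels overlapped between DB and HE, and Kcnj8 was higher in both BB libraries than in any HE library. Kcnj8, that of the vessel wall, had 56.8 and 51.5 in BB, 52.0, 42.9 and 53.8 in DB, and 49.0, 45.7 and 47.6 in HE, and Kcnj11, that of beta cells, had 49.1 and 46.7 in BB, 60.3, 37.2 and 46.3 in DB, and 50.4, 43.1 and 38.2 in HE. Kcnj2, the classical inward rectifier Kir2.1, had 20.2 and 18.5 in BB, 23.7, 22.7 and 11.2 in DB, and 14.1, 18.6 and 17.9 in HE. Kcnj5, a G protein-gated channel of the heart, had 139 and 157 in BB, 152, 147 and 152 in DB, and 161, 141 and 155 in HE.

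Voltage-gated pores (Kcna to Kcnd, 15 genes), which repolarise excited cells, had medians of −0.02 in DB against HE, 0.02 in BB against DB and −0.10 in BB against HE. Kcnc1 (Kv3.1) had 91.1 and 77.3 in BB, 68.5, 59.1 and 73.2 in DB, and 69.9, 71.9 and 75.7 in HE, a log2 fold change of 0.33 in BB against DB (SE 0.15, limma adjusted p = 0.992) or 0.21 without BB replicate 1, with BB above both other groups. Kcna2, with the highest mean of the Kv1 group, had 199 and 201 in BB, 174, 174 and 176 in DB, and 183, 175 and 192 in HE, so BB lay above the other groups by a small step. The remaining pores chosen for their roles overlapped between groups. Kcna3 (Kv1.3), which sustains calcium entry in T cells, had 54.5 and 38.7 in BB, 41.1, 49.4 and 51.6 in DB, and 43.0, 42.3 and 31.2 in HE. Kcna5 (Kv1.5), a vascular and atrial channel, had 36.6 and 25.8 in BB, 32.0, 42.1 and 30.6 in DB, and 39.6, 33.0 and 49.2 in HE. Kcnd3 (Kv4.3), of the transient outward current, was among the steadiest, with 132 and 130.5 in BB, 137, 121 and 130.05 in DB, and 134, 124 and 131 in HE.

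The 10 silent subunits (Kcnf, Kcng, Kcns, Kcnv) form no channel alone and modify other voltage-gated pores. Kcng2 (Kv6.2) had 17.1 and 28.2 in BB, 22.8, 30.8 and 38.1 in DB, and 36.9, 43.1 and 32.0 in HE. Both BB libraries were below all HE libraries and DB overlapped both groups, with a log2 fold change in BB against HE of −0.73 (SE 0.25, 95% interval −1.26 to −0.19, limma adjusted p = 0.528). It was −0.38 without BB replicate 1 and −1.07 without BB replicate 4. Kcnv2 (Kv8.2, of the retina) had 74.0 and 77.3 in BB, 108, 61.5 and 88.9 in DB, and 68.5, 69.3 and 71.0 in HE, and Kcng4 had 135 and 147 in BB, 152, 164 and 119 in DB, and 131, 126 and 138 in HE. Kcns1 had 55.3 and 50.7 in BB, 44.7, 52.6 and 51.6 in DB, and 55.1, 54.1 and 50.7 in HE. Kcnv2 was higher in both BB libraries than in HE, and Kcng4 and Kcns1 overlapped in every comparison.

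Among the 8 Kcnh genes, relatives of the cardiac ERG channel, Kcnh8 had 149 and 143 in BB, 117, 152 and 156 in DB, and 153, 189 and 149.8 in HE. Both BB values lay below the HE values, the nearer one narrowly, while DB overlapped both. Of the 5 Kcnq genes, which carry the M current and the slow cardiac delayed rectifier, Kcnq1 had 146 and 172 in BB, 129, 149 and 150.2 in DB, and 154, 180.1 and 162 in HE, each DB value being below each HE value. Kcnq5, an arterial channel, overlapped in all groups, with 146 and 144 in BB, 161, 131 and 151 in DB, and 161, 133 and 142 in HE.

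The 14 leak channels with 2 pore domains (Kcnk) set the resting potential. Kcnk6 (TWIK2), through which potassium leaves activated macrophages in mice, had 35.8 and 27.4 in BB, 21.9, 22.7 and 32.9 in DB, and 18.8, 20.3 and 19.5 in HE. All BB and DB libraries lay above HE, with log2 fold changes of 0.66 in BB against HE (SE 0.25, 95% interval 0.14 to 1.17, limma adjusted p = 0.594) and 0.36 in DB against HE (SE 0.22, adjusted p = 0.666). Macrophage and lymphocyte markers, all 10 with reads in all 8 libraries, summed to 1528 to 1595 in BB, 1569 to 1888 in DB and 1738 to 1930 in HE. The BB sums lay below the HE sums, and DB overlapped both. The part of these markers in the Kcnk6 values was not tested. Kcnk13 (THIK1), of microglia, had 36.6 and 44.3 in BB, 28.3, 35.6 and 35.1 in DB, and 36.9, 18.6 and 25.0 in HE. Its log2 fold change in BB against HE was 0.62 (SE 0.25, limma adjusted p = 0.637), or 0.39 without HE replicate 3, and HE replicate 2 reached the BB values.

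Kcnk12 (THIK2), the relative of Kcnk13, had 25.7 and 36.2 in BB, 44.7, 45.3 and 42.6 in DB, and 35.6, 35.5 and 40.6 in HE. DB lay above both other groups without overlap, and the log2 fold change was −0.52 in BB against DB (SE 0.20, 95% interval −0.93 to −0.11, limma adjusted p = 0.959), or −0.28 without BB replicate 1. Kcnk2 (TREK1), a stretch-sensitive channel, had 69.3 and 55.6 in BB, 75.8, 67.2 and 65.8 in DB, and 53.7, 60.0 and 64.0 in HE, with DB narrowly above HE. Kcnk3 (TASK1), an acid-sensitive channel that in mice and human fat cells lowers heat production, had 117 and 109 in BB, 85.8, 108 and 108 in DB, and 114, 113 and 98.3 in HE, with both BB libraries narrowly above DB.

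Of the 4 calcium-activated channels of small and intermediate conductance, Kcnn3 (SK3), of endothelium, had 123 and 120.0 in BB, 136, 119 and 114 in DB, and 116, 162 and 129.5 in HE, which overlapped. Kcnn4, of red cells, T cells and endothelium, had 41.3 and 33.8 in BB, 40.2, 43.7 and 42.6 in DB, and 36.9, 30.4 and 34.3 in HE, with all DB libraries above all HE libraries.

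Among the 16 auxiliary subunits, Kcnmb1, which makes BK channels of smooth muscle more sensitive to calcium, had 34.3 and 51.5 in BB, 32.0, 27.5 and 34.4 in DB, and 25.5, 31.3 and 28.9 in HE. BB lay above HE without overlap, by a log2 fold change of 0.55 (SE 0.22, 95% interval 0.09 to 1.01, limma adjusted p = 0.640), and BB against DB gave 0.42 (SE 0.22, adjusted p = 0.998). Single BB libraries decided its size: BB against HE was 0.83 without BB replicate 1 and 0.26 without BB replicate 4, and BB against DB was 0.71 and 0.13 in the same order. The 8 smooth muscle markers, all with reads in all 8 libraries, summed to 715 to 800.4 in BB, 715 to 818 in DB and 745 to 772 in HE. Kcne4, which curbs Kv1.3 and Kv7 channels, had 7.79 and 11.3 in BB, 5.48, 2.43 and 5.23 in DB, and 12.8, 8.46 and 3.90 in HE. These are few reads, and its log2 fold change in BB against DB, 1.01, had an SE of 0.47 (limma adjusted p = 0.992). Kcne1 had 3.11 and 4.03 in BB, 0.913, 6.48 and 6.73 in DB, and 4.70, 0 and 3.12 in HE, too few to compare. Kcne2 had 20.2 and 20.9 in BB, 17.3, 26.7 and 17.9 in DB, and 22.8, 17.8 and 21.9 in HE. Kcnip2, a calcium sensor of Kv4 channels, had 142 and 125 in BB, 111, 117 and 146 in DB, and 122, 112 and 123 in HE, both BB values lying above HE. The oxidoreductase-like Kcnab1 had 87.2 and 94.2 in BB, 118, 116 and 87.4 in DB, and 96.7, 102 and 93.6 in HE. Auxiliary genes above 0 numbered 8 of 16 in DB against HE, 8 in BB against DB and 11 in BB against HE (median 0.15, beside −0.0011 over all genes).

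Among partners outside the family, 0 of 12 genes that bind channels were called by limma in any comparison, with medians of −0.07 in DB against HE, −0.06 in BB against DB and −0.10 in BB against HE. Of the 7 chloride cotransporters none was called either. Of 13 pump genes 1 was called, Atp1b3, the beta3 subunit of the sodium-potassium pump that builds the gradient on which these channels work. Atp1b3 had 128 and 113 in BB, 154, 111 and 141 in DB, and 77.2, 72.7 and 61.7 in HE, every BB and DB library being above every HE library. It rose in DB relative to HE by a log2 fold change of 0.92 (SE 0.14, limma adjusted p = 0.00160) and in BB relative to HE by 0.76 (SE 0.16, adjusted p = 0.0496), and BB against DB gave −0.16 (adjusted p = 0.998). The DB call held in 18 of 20 alternatives, the exceptions being the fits with BB replicate 8, whereas the BB call held in 5 of 20, with adjusted p of 0.0203 to 0.903. Without single libraries the BB call was lost without BB replicate 1 (0.390), BB replicate 4 (0.179), DB replicate 1 (0.0609), DB replicate 6 (0.0887), HE replicate 2 (0.0696), HE replicate 3 (0.0622) or HE replicate 4 (0.388).

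BB replicate 8 differed from the other 8 libraries across the whole family. Of the 91 genes 22 (24.2%) were at 0 there, beside 46.6% of all genes tested and 68.4% of olfactory receptor genes. Median mean values in the other 8 libraries ran in the reverse order, at 64.1, 31.7 and 17.7. The part of level in these shares was not tested. A further 34 had reads but lay below the lowest of the other 8 libraries, 5 lay within their range and 30 (33.0%, beside 23.1% of all genes) above the highest. Since 1 read stands for 14.6, a 0 allows a value of up to 43.9 (3 reads, counting error only), and for 5 of the 22 genes at 0 the lowest of the other libraries was above that, Kcnn3 and Kcnu1 among them.

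A few genes took most of the family's reads in that library. Kcnj15 had 25770 scaled reads (1761 reads), 135 times the highest of the other 8 libraries, and Kcnmb4 had 7683 (525 reads, 87.1 times). Kcnma1 had 9717 (664 reads, 47.9 times), Kcnj8 2795 (191 reads, 49.2 times), Kcnh3, a Kcnh channel of the forebrain, 4171 (285 reads, 30.8 times) and Kcnd3 2517 (172 reads, 18.4 times). These 6 genes held 3598 of the 4614 reads of the family there (78.0%). The multiples rest on the size factor, by which 1 read stood for 14.6 in a library of 12267084 reads. By share of reads the family was lower there, at 0.0376%, against 0.260% to 0.293% in the others. The 172 reads of Kcnd3 lay within the 147 to 200 of the other 8, smaller libraries. The 1761 reads of Kcnj15 lay above their 121 to 244. A value over 10 times the highest of the others was found for 7.69% of the family, beside 5.81% of all genes tested and 1.59% of olfactory receptor genes. Smooth muscle markers summed to 12907 in this library (715 to 818 in the others) and neuron markers to 12468 (682 to 761), with none of either list at 0, and islet markers to 25082 (198 to 267) with 3 of 6 at 0. Kidney and adrenal markers (4273, beside 1126 to 1397) and endothelial markers (2941, beside 1576 to 1756) were also above the others. Hepatocyte (307, beside 1030 to 1661), striated muscle (380, beside 887 to 978) and immune markers (1127, beside 1528 to 1930) were below. These sums are scaled in the same way, and the part of any list in these values was not tested. Neighbours did not share the high values of Kcnj15, as Kcnj6 and Erg were both at 0.

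**Figure D4:**
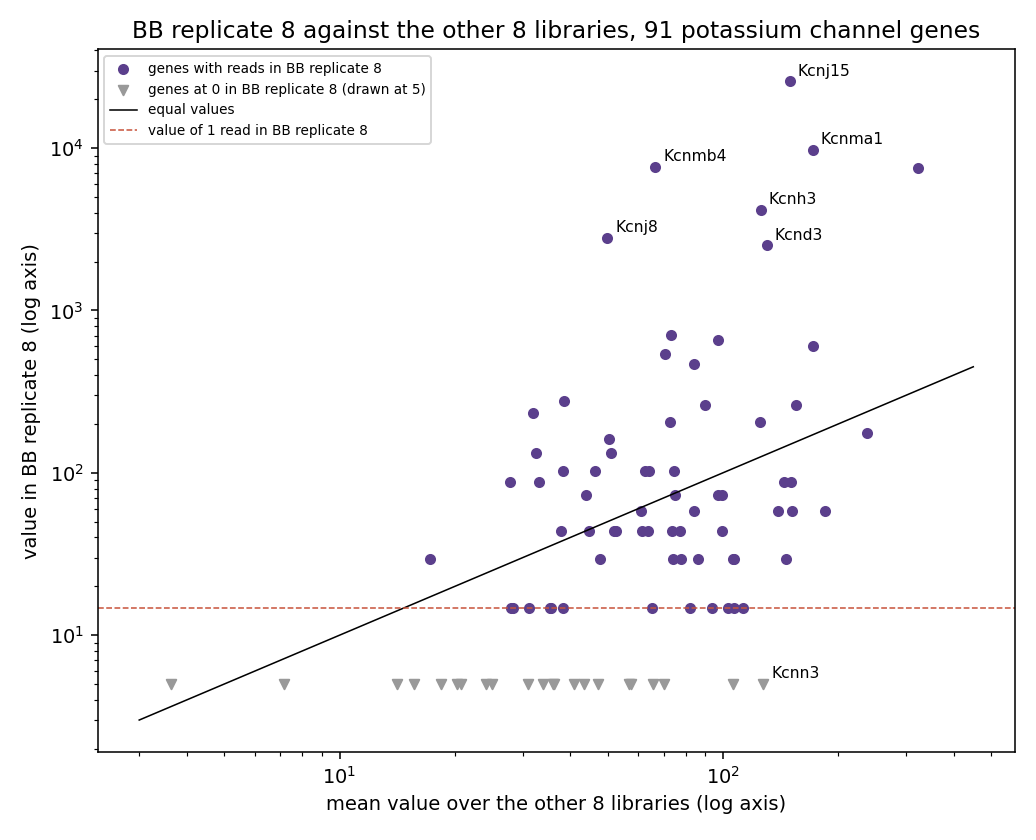
Value in BB replicate 8 (y axis, log scale) against the mean of the other 8 libraries (x axis, log scale) for the 91 potassium channel genes; genes at 0 are drawn as grey triangles at 5, the line marks equal values and the dashes mark 1 read (14.6). The 22 genes at 0 include Kcnn3 with a mean of 128 elsewhere, while the 6 labelled genes above the line reach 2517 to 25770.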

How the data were processed

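RNA was extracted from adipose tissue (retroperitoneal, per the study's methods) with a lipid tissue kit and sequenced commercially. The authors deposited 1 table per group with a signal for each gene, made by dividing its read count by the library's size factor. Reads were recovered by dividing each library's values by its smallest value above 0, assumed to stand for 1 read. The results were whole to within 0.1 reads for 100% of values. Columns end in a letter where the titles end in another code, neither explained, so they were matched by group and rat number, and whether they hold that tissue was not tested. Mouse builds (GRCm38, mm10) stand in the submitters' processing notes although gene names are those of rat. Not given in the sources used here are the aligner, counter, annotation and use of strand, so overlapping and antisense genes cannot be told apart. No potassium channel gene had the same reads as another gene, while 1194 genes of the tables did.

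The potassium channel genes and the lists of partners and markers were chosen with earlier results of these data known. The test was limma 3.58.1 (R 4.3.3) with a trend, on log2(value + 1), fitted once to the 3 groups (8 libraries, 5 residual degrees of freedom, no covariate) over genes whose mean reached 1 in any group. Fold changes are on this scale, which understates those of low genes. All 91 genes passed the filter. Since the values are normalized, a count test was an alternative only. On the recovered reads edgeR 4.0.16 called 203 genes in DB against HE, 1 in BB against DB and 67 in BB against HE. Further alternatives were DESeq2 1.42.0, limma-voom, other scalings, filters and a pseudocount of 0.1, a fit of all 9 libraries, fits of 2 groups, genes with the same reads kept once, and leaving out each library. edgeR on all 9 libraries was added after seeing the data. The fitting was tested on simulated data with a common spread for all genes and larger changes than most found here. It is therefore no check of the small changes given here.

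Genes named are those called, the 6 smallest p-values per comparison, the highest mean per subfamily of at least 2 genes, a list of channels known from fat, vessels, immune cells or islets, and the highest values in BB replicate 8. Kcnk1 and the neighbouring genes were named after their values were seen. The libraries' precision is limited by reads and number. Intervals are those of limma at 95%. Promoters came from RefSeq (GRCr8), and no coordinates of that build were set beside the files. Values of some single genes that the rule names are not reported here. The sources' own fold changes and p-values were not used.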

Additional observations from a re-analysis of the deposited data

Results flagged for a closer look

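In BB replicate 8, which entered no comparison of the fit of 8 libraries, 6 potassium channel genes given here lay over 10 times above the highest of the other 8 libraries, a limit chosen after seeing the data. Kcnj15 had 25770 scaled reads there, against at most 191 elsewhere. Kcnma1 had 9717, against at most 203. Kcnmb4 had 7683, against at most 88.3. Kcnh3 had 4171, against at most 135, Kcnj8 had 2795, against at most 56.8, and Kcnd3 had 2517, against at most 137. BB replicate 1 and BB replicate 4 had none of these values, so they are those of 1 library. They are scaled values, with 1 read worth 14.6 in that library. The family's share of reads was lower there, at 0.0376%, against 0.260% to 0.293% in the others. Groups of 3 libraries are too small for a check of single outlying samples.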

How the results depend on the processing

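No paired analysis was possible because each pair of groups shares only 1 rat number, which names different rats.

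Of all genes, the 0 called by limma in BB against DB became 2 with DESeq2, 1 with edgeR, 1 with genes of the same reads kept once, 5 in the fit of 2 groups, 2 with total-count scaling and 1 with upper-quartile scaling. The 219 in DB against HE (108 higher, 111 lower) became 333 (100 higher, 233 lower) with total-count scaling. With all 9 libraries limma and edgeR called 0 in DB against HE and 0 in BB against HE, where the fit of 8 called 62. Leaving out each library gave 0 to 19 genes in BB against DB, 26 to 76 in BB against HE and 59 to 420 in DB against HE, the last without HE replicate 3.

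Of the channel genes, the 1 called in BB against HE (Kcnu1) became 0 with DESeq2, limma-voom, total-count scaling, a pseudocount of 0.1 and either fit of all 9 libraries. In DB against HE the 0 called became 1 (Kcnu1) with total-count scaling. Without single libraries, 0 to 3 were called in DB against HE (3 without HE replicate 3: Kcnj15, Kcnmb4 and Kcnu1), 0 to 1 in BB against HE and 0 to 0 in BB against DB. The median log2 fold change moved to −0.30 in BB against DB and −0.29 in BB against HE with all 9 libraries (all genes −0.51 in both), and with total-count scaling to 0.068 in BB against DB (all genes 0.08) and −0.060 in DB against HE (all genes −0.05). Without single libraries it stayed between −0.02 and 0.02 in BB against DB and in BB against HE, and between −0.03 and 0.02 in DB against HE.

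With BB replicate 8 in the limma fit, directions turned in BB against DB for Kcne4 (−0.12), Kcnj15 (2.05; edgeR 5.49), Kcnk12 (0.051) and Kcnmb4 (1.92; edgeR 4.93), and in BB against HE for Kcnk6 (−1.02). edgeR on all 9 libraries turned Kcnj15 and Kcnmb4 alone of these, and gave 1.06 for Kcne4, −0.37 for Kcnk12 and 0.64 for Kcnk6. The limma fit of all 9 differs from the fit of 8 in that library and in the gene filter applied anew with it. The edgeR fit of all 9 differs also in test, normalization, filter and the use of recovered reads. The cause of the other shifts was not tested. BB rests on 2 libraries, and where 1 of them is left out the lone library is assumed to vary like the other groups.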
